A study of Homo sapiens with 12 samples.

Results

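The difference in the response to hypoxia between RKO and A549 cells was read from 8 of the 12 libraries of the series, namely the RKO and A549 libraries, as the interaction of cell line and oxygen. RKO is a colon carcinoma line and A549 is a lung adenocarcinoma line, and both were grown in DMEM with 10% fetal bovine serum. Cells were kept in normoxia or placed in 1% O2 for 24 h, which gave 4 groups (RKO normoxia, RKO hypoxia, A549 normoxia and A549 hypoxia) with 2 replicates each, and no transgene or drug was part of these groups. The other 4 libraries came from H460 cells, a lung carcinoma line grown in RPMI, and were read only where named. Each group is a single established line, so the tissue of origin and the genotype of the line cannot be told apart, and in bulk RNA fewer expressing cells cannot be told apart from less RNA per cell. Steady-state poly(A)+ RNA was counted per gene, and the question was which genes responded in one line differently from the other.

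Cells answer low oxygen mainly through the hypoxia-inducible factors, whose alpha subunits HIF1A and EPAS1 (HIF2A) are hydroxylated by the EGLN oxygen sensors, bound by VHL and destroyed when oxygen is present. Without oxygen they pair with ARNT and activate genes for glucose uptake, glycolysis, angiogenesis, pH control and collagen processing. Other stress pathways often move at the same time, among them the p53 pathway, the ATF4 pathway of amino acid shortage, the NRF2 pathway of oxidative stress and the MYC-driven synthesis of ribosomes. A549 is known for a constitutively active NRF2 pathway.

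Between 33423601 and 41757584 reads were counted per library. The spread between the replicates of each group exceeded counting error (chi-square of 38.7 to 72.0 for each degree of freedom). The A549 hypoxia libraries were unequal. Over the 250 genes called up in both lines, the median log2 rise over the mean of normoxia was 0.97 in A549 hypoxia replicate 1 and 1.58 in replicate 2, against 1.69 and 1.44 in the RKO hypoxia libraries. Of 10 colon epithelial markers 2, among them CDX2, were over 0.5 CPM (the read count of a gene scaled to a common library total) in RKO, which had no reads of CDX1 or VIL1. Of 12 lung epithelial markers A549 had NAPSA, FOXA2, AGER and ABCA3 over 0.5 CPM and no reads of SFTPA1 or SCGB3A2, and RKO had AGER, ABCA3 and LAMP3 over 0.5 CPM. The summed lung markers were no higher in A549 (86.7 to 110 CPM) than in RKO (106 to 162 CPM), and the summed colon markers were 29.9 to 47.0 CPM in RKO and 14.7 to 19.8 CPM in A549. The 12 fibroblast, endothelial and blood markers summed to 469 to 664 CPM in RKO, where VWF and CD68 were the members over 0.5 CPM, and to 120 to 161 CPM in A549, with CD3E and HBB at 0 in both lines. In RKO that sum was higher in both hypoxia libraries (639 and 664 CPM) than in both normoxia libraries (469 and 499 CPM), and its part in the RKO results was not tested.

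The lines differed in their response for 1133 of 12209 genes that had reads in both. The response was higher in RKO for 774 genes (6.34% of the genes tested) and lower in RKO for 359 (2.94%), at an adjusted p under 0.1 in edgeR's quasi-likelihood test, where "higher" means that hypoxia / normoxia was larger in RKO than in A549. Within RKO hypoxia raised 2403 of these genes (19.7%) and lowered 1577 (12.9%), and within A549 it raised 416 (3.41%) and lowered 114 (0.934%), at the same adjusted p and a fold change over 1.5. Most of the difference therefore lay in genes called in RKO alone. Of the 774 genes, 667 rose in RKO alone, 27 rose in both lines, 16 fell in A549 alone, 16 were called in opposite directions and 48 were called in neither line. Of the 359 genes, 245 fell in RKO alone, 46 rose in A549 alone, 4 rose in both lines, 1 fell in both, 10 were called in opposite directions and 53 in neither. A further 219 genes rose in both lines without a called difference. The filter had a part in these counts. Of the 774 genes, 114 did not exceed 0.5 CPM in both RKO normoxia libraries and passed with the help of RKO hypoxia. The same held for 404 of all 12209 genes and for 2 of the 359.

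These counts depended on the scaling and on the fit. Scaling by library size alone shifted the log2 differences by 0.13 at the median and gave 1132 genes higher and 192 lower in RKO, so that 85.5% of the calls were higher in RKO in place of 68.3%. With the replicate number as a block within each line, 1891 genes were higher and 1430 lower, and all 1133 genes were kept with the same sign. The block thus called 27.2% of the genes tested, the share to set beside its counts in the lists below. Those lists were chosen with earlier results of these data known, so the shares called in them are descriptions. Without RKO normoxia replicate 1 the counts were 250 and 53, without RKO normoxia replicate 2 410 and 115, without RKO hypoxia replicate 1 360 and 90, without A549 normoxia replicate 2 396 and 204, without A549 hypoxia replicate 1 353 and 265, and without A549 hypoxia replicate 2 645 and 585.

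**Figure D1:**
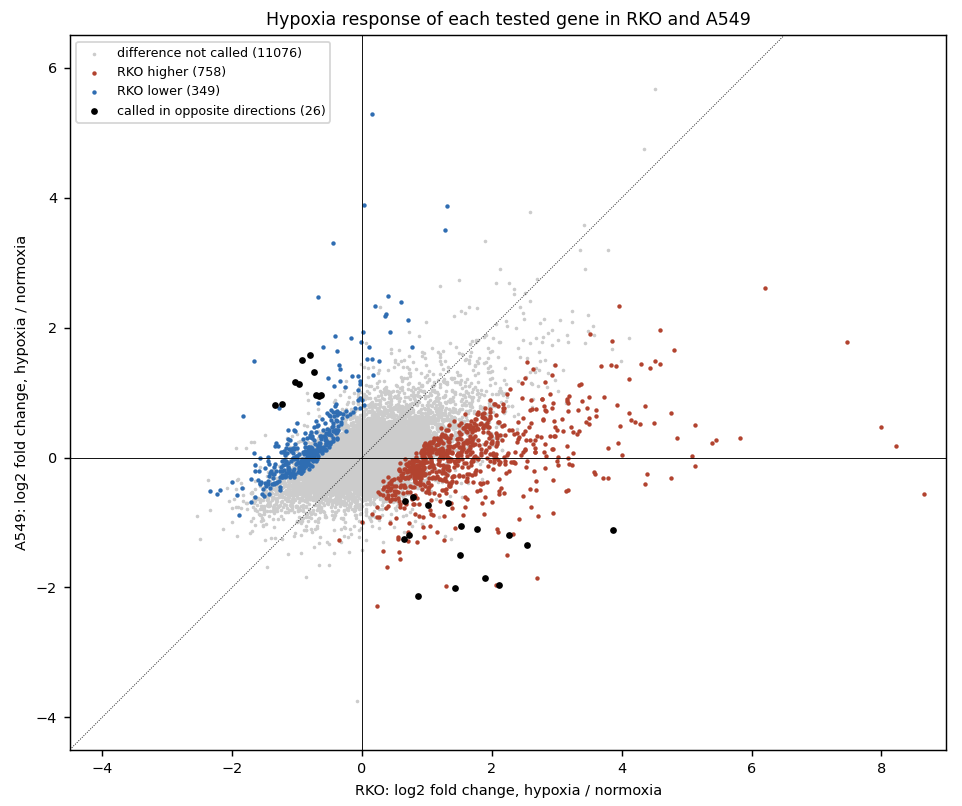
Log2 fold change in hypoxia over normoxia of each of the 12209 tested genes in RKO (horizontal axis) and A549 (vertical axis). Red and blue points are genes whose response was called higher or lower in RKO, black points are the 26 genes called in opposite directions, and grey points were not called. Most red points spread along the horizontal axis, where A549 changed little.

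Hypoxia moved 26 genes (0.213% of the genes tested) in opposite directions, 16 up in RKO and down in A549 and 10 the other way. The clearest was OSGIN1, an oxidative stress-induced growth inhibitor that NRF2 is known to activate (chromosome 16, 83986827 to 83999937, GRCh37). In RKO it stood at 8.83 and 9.13 CPM in normoxia and at 45.0 and 32.6 CPM in hypoxia. In A549 it stood at 47.4 and 45.6 CPM in normoxia and at 11.97 and 12.02 CPM in hypoxia. The lines thus exchanged places, with both RKO hypoxia libraries near the A549 normoxia level and no overlap between conditions in either line. The log2 change was 2.11 ± 0.20 (SE, n = 2 and 2 libraries) in RKO and -1.96 ± 0.20 in A549, and the difference was 4.07 (SE 0.28, 95% interval 3.46 to 4.68, edgeR adjusted p = 2.13e-05).

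GDF15, a stress cytokine of the TGF-beta superfamily that p53 and ATF4 are known to activate (chromosome 19, 18496968 to 18499986), did the same. It rose from 39.9 and 28.6 CPM to 86.9 and 108 CPM in RKO. In A549 it fell from 28.0 and 22.4 CPM to 11.3 and 6.36 CPM. Both lines had similar levels in normoxia, and hypoxia drew them apart. The difference was 3.02 (SE 0.38, edgeR adjusted p = 0.0026).

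The sequences before the transcription starts of OSGIN1 and GDF15 are shown. They are the opposite-called genes with the smallest p that have a single start in the RefSeq promoter table used (GRCh38.p14). It held 11 of the 16 genes named for opposite calls. Each run is the 250 bases before the start on the + strand, at chr16:83952990-83953239 for OSGIN1 and chr19:18385908-18386157 for GDF15. Capitals mark TGANTCA, the AP-1 motif, and TATAAA, the TATA motif, both added after the sequences were read.
OSGIN1: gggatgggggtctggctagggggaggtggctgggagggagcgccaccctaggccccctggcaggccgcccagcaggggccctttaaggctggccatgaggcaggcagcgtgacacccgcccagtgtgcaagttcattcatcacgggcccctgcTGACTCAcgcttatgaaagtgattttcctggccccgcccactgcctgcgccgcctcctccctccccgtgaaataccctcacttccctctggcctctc
GDF15: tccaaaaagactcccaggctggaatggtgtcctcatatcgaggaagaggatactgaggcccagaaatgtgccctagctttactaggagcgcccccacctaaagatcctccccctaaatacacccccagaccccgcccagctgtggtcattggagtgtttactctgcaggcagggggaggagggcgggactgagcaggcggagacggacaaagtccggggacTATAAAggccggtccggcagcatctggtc
The OSGIN1 run held TGANTCA 91 to 97 bases before the start, a motif present on either strand in 6.57% of 35116 promoter runs of the same length. GDF15 held TATAAA 24 to 29 bases before the start, present in 10.7% of them. Neither run held ACGTG, the core of the HIF motif (18.5%), TGACNNNGC, the core of the NRF2 motif (10.9%), or TGATGNAA, the core of the ATF4 motif (3.14%), on either strand. On the - strand the bases at the marked OSGIN1 motif match that NRF2 core but for G in place of its last C before the N bases. Other forms of the NRF2 motif were not searched, so the run is not shown to lack an NRF2 site.

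Among the other genes that rose in RKO and fell in A549 were SH2D5, an adaptor protein with an SH2 domain, with 2.05 and 2.93 CPM in RKO normoxia and 12.6 and 16.4 CPM in RKO hypoxia, against 22.4 and 24.1 CPM in A549 normoxia and 12.5 and 5.88 CPM in A549 hypoxia. Its difference was 3.88 (edgeR adjusted p = 0.0026). NR4A1, an immediate-early nuclear receptor, changed by 1.52 in RKO and -1.05 in A549, EPHX1, the microsomal epoxide hydrolase, by 1.02 and -0.72, and RELL2, a membrane protein related to the TNF receptor RELT, by 0.64 and -1.25. SGK223, a pseudokinase, changed by 1.32 and -0.69, and TBC1D30, which has a Rab GTPase-activating domain, by 2.26 and -1.19. TBC1D30 was sparse in RKO normoxia, at 0.538 and 0.504 CPM.

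The reverse pattern was led by PRKAR1B, a regulatory subunit of protein kinase A. Its levels were 47.2 and 49.9 CPM in RKO normoxia and 16.6 and 21.7 CPM in RKO hypoxia, and 34.8 and 27.4 CPM in A549 normoxia and 49.9 and 59.6 CPM in A549 hypoxia. It fell in RKO in both hypoxia libraries and rose in A549 in both, with a difference of -2.16 (SE 0.28, edgeR adjusted p = 0.00296). LPCAT1, which makes phosphatidylcholine of lung surfactant, went from 274 and 338 CPM to 131 and 168 CPM in RKO and from 266 and 161 CPM to 495 and 463 CPM in A549. FAM13A changed by -0.81 in RKO and 1.58 in A549. LXN, a carboxypeptidase inhibitor, changed by -1.23 and 0.83, SCARB1, the receptor of high-density lipoprotein, by -0.66 and 0.95, and MRPS6, of the mitochondrial ribosome, by -0.63 and 0.97. IL32, a cytokine, and ARRB1, beta-arrestin, were the last of the named genes, with differences of -1.66 and -2.05.

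For these 16 named genes the difference itself remained called when any one of the 8 libraries was left out. The number of genes called in opposite directions did not. It was 2 without A549 hypoxia replicate 2, 6 without A549 normoxia replicate 2, 11 without RKO normoxia replicate 1, 13 without RKO normoxia replicate 2, 17 without RKO hypoxia replicate 1, 40 without A549 hypoxia replicate 1 and 45 without A549 normoxia replicate 1, and it was 65 with the replicate block.

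H460 cells, whose libraries had no part in choosing these genes, gave a further reading in another medium. Hypoxia raised 24.6% and lowered 27.3% of 14080 genes tested in H460 on its own. Of the 26 genes 23 were tested there, 5 were called in the direction of RKO, 9 in that of A549 and 9 were not called. OSGIN1 (-1.74), TBC1D30 (-3.24) and EPHX1 (-2.45) fell in H460 as in A549, and FAM13A (2.84), PRKAR1B (1.28) and LPCAT1 (1.11) rose as in A549. RELL2 (0.65) rose as in RKO and MRPS6 (-1.02) fell as in RKO.

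**Figure D2:**
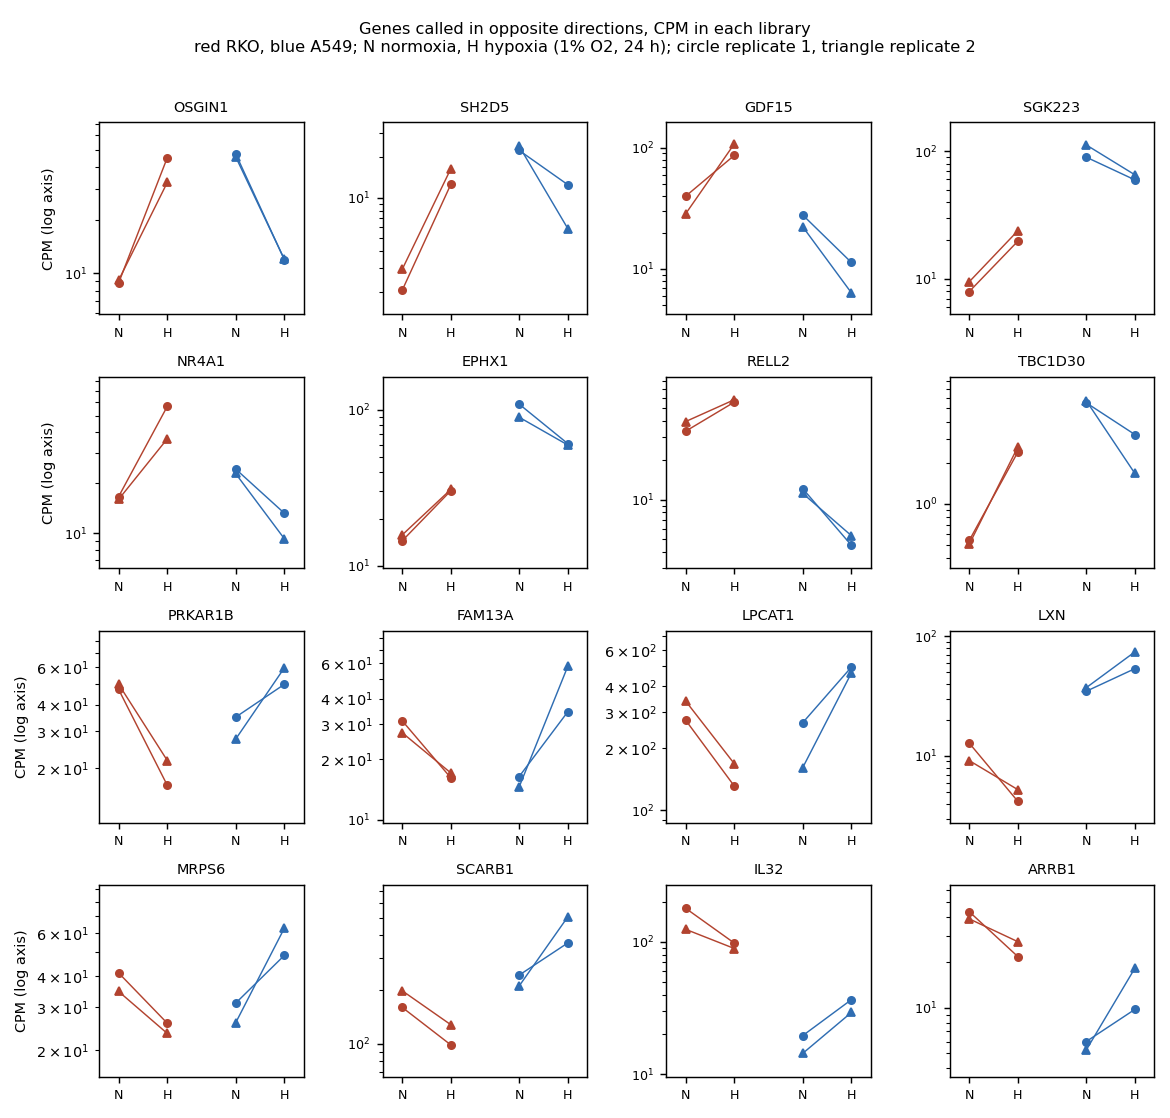
CPM on a log axis in each of the 8 libraries for the 16 genes named for being called in opposite directions. RKO is red, A549 blue, N normoxia and H hypoxia, circles are replicate 1 and triangles replicate 2. Drawn segments join the same replicate number within a cell line, and in each panel they rise in one cell line and fall in the other.

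The HIF pathway was induced in both lines. Of 38 tested HIF targets 33 rose in RKO and 28 in A549, none fell in either, and the median log2 change was 1.90 in RKO and 1.72 in A549. The difference between the lines was called for 4 targets as higher in RKO (10.5%, against 6.34% of all genes) and 3 as lower (7.89%, against 2.94%), and its median was 0.10, beside 0.04 over all genes tested. With the replicate block 12 were higher and 7 lower (50% called, against 27.2% of all genes). Without A549 hypoxia replicate 1 the median was -0.26 with 2 higher and 4 lower, without RKO hypoxia replicate 2 it was 0.34 with 5 and 1, and without A549 normoxia replicate 1 or A549 hypoxia replicate 2 there were 8 higher. There were 2 higher without RKO normoxia replicate 2, RKO hypoxia replicate 1 or A549 normoxia replicate 2, and 1 lower without RKO normoxia replicate 1, RKO hypoxia replicate 1 or A549 hypoxia replicate 2. SLC2A1, the glucose transporter GLUT1, stood at 102 CPM in both RKO normoxia libraries and at 373 and 332 CPM in hypoxia, and in A549 at 174 and 182 CPM and at 504 and 741 CPM. Both lines rose without overlap, by 1.79 and 1.81, and the difference was -0.02 (95% interval -0.60 to 0.57, edgeR adjusted p = 0.977).

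Several other classic targets had differences that were not called but whose intervals were wide. PDK1, the kinase that turns off pyruvate dehydrogenase, differed by -0.09 (interval -0.78 to 0.60), VEGFA, the angiogenic growth factor, by -0.40 (-1.43 to 0.63) and NDRG1, a stress-response protein, by -0.41 (-1.96 to 1.14). CA9, a carbonic anhydrase at the cell surface, went from 3.77 and 1.87 CPM to 54.3 and 74.1 CPM in RKO and from 6.17 and 2.72 CPM to 211 and 244 CPM in A549. A549 hypoxia libraries were above those of RKO, and the difference of -1.16 (interval -2.24 to -0.07) had an edgeR adjusted p of 0.192. ADM, a vasodilator peptide, differed by 1.32 (edgeR adjusted p = 0.1004), ANKRD37 by 1.28 and DDIT4, an inhibitor of mTORC1, by 1.11. MXI1, a MYC antagonist, differed by -1.10. The replicate block called ADM, ANKRD37 and DDIT4 higher and MXI1 lower in RKO (edgeR adjusted p = 0.0114, 0.0772, 0.0204 and 0.0261).

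The targets with a stronger response in RKO were a nuclear receptor, a regulator of glycolysis, a histone demethylase and an oxygen sensor. RORA, a nuclear receptor of the circadian clock, rose from 11.5 and 9.26 CPM to 96.9 and 60.6 CPM in RKO. In A549 it lay between 0.493 and 1.16 CPM in all 4 libraries, so its ratio there rests on few reads. The difference was 2.80 (SE 0.52, edgeR adjusted p = 0.015). PFKFB4, which makes the activator of phosphofructokinase, rose from 37.8 and 25.1 CPM to 297 and 239 CPM in RKO. It had 93.8 and 42 CPM in A549 normoxia and 84.5 and 96.0 CPM in A549 hypoxia, where the conditions overlapped. Its difference was 2.68 (SE 0.44, edgeR adjusted p = 0.00858).

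KDM3A, a histone demethylase, rose in both lines, by 2.50 in RKO and 1.23 in A549, and EGLN1, the main oxygen sensor, by 1.21 in RKO against 0.23 in A549. Both differences (1.27 and 0.98, edgeR adjusted p = 0.0565 and 0.0815) lost their call in 5 of the 8 fits with a library left out. These were the fits without RKO normoxia replicate 2, RKO hypoxia replicate 1, A549 normoxia replicate 2 and A549 hypoxia replicate 1, and for KDM3A also RKO normoxia replicate 1 and for EGLN1 also A549 hypoxia replicate 2, with adjusted p up to 0.167 and 0.239.

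Of the HIF alpha subunits EPAS1 was called and HIF1A was not. EPAS1 stood at 9.56 and 7.16 CPM in RKO normoxia and at 25.7 and 17.0 CPM in RKO hypoxia. In A549 it was far more abundant, at 390 and 466 CPM in normoxia and 317 and 509 CPM in hypoxia, with the conditions overlapping. It rose in RKO by 1.35, changed by -0.05 in A549, and the difference of 1.41 (SE 0.37) had an edgeR adjusted p of 0.0535. Leaving out RKO normoxia replicate 1, RKO normoxia replicate 2, RKO hypoxia replicate 1, A549 normoxia replicate 2 or A549 hypoxia replicate 1 ended that call, with adjusted p up to 0.179. HIF1A mRNA fell in both lines, by 1.69 in RKO and 1.14 in A549 on the log2 scale, and the difference was not called (-0.55, interval -1.17 to 0.06). Of the 11 tested subunits and sensors, EPAS1 and EGLN1 were called higher (18.2%, against 6.34% of all genes) and none lower.

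LOX was the target with the strongest response in A549 relative to RKO. It encodes lysyl oxidase, which cross-links collagen (chromosome 5, 121398890 to 121414055). In A549 it rose from 1.36 and 2.49 CPM to 34.3 and 116 CPM. In RKO it lay between 0.974 and 1.49 CPM in all 4 libraries, with hypoxia and normoxia overlapping. The A549 change was 5.29, the RKO change was 0.16, and the difference was -5.13 (SE 0.76, edgeR adjusted p = 0.00479). ANGPTL4, an inhibitor of lipoprotein lipase, rose from 56.9 and 104 CPM to 442 and 1383 CPM in A549, against 88.9 and 39.9 CPM to 153 and 160 CPM in RKO. Its difference was -2.22 (edgeR adjusted p = 0.0814), and the call was lost with DESeq2, with voom, in both RPKM fits and in 5 of the fits with a library left out, with an adjusted p up to 0.303 without RKO normoxia replicate 1. The other 4 were RKO hypoxia replicate 1, RKO hypoxia replicate 2, A549 normoxia replicate 1 and A549 hypoxia replicate 2.

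Genes of collagen processing and the matrix were split. Of 30 tested, 15 rose in A549 and 11 in RKO, and the difference was called as lower in RKO for 5 (16.7%, against 2.94% of all genes) and higher for 2 (6.67%, near the 6.34% of all genes), with a median of -0.19 that ranged from -0.45 to 0.03 when single libraries were left out. The replicate block gave 11 lower and 3 higher (46.7% called, against 27.2% of all genes). The number lower was 8 without A549 hypoxia replicate 1, 4 without either A549 normoxia library, 3 without RKO normoxia replicate 1, RKO hypoxia replicate 2 or A549 hypoxia replicate 2, and 2 without RKO normoxia replicate 2 or RKO hypoxia replicate 1, and the median was above 0 without A549 hypoxia replicate 2. PLOD2, the lysyl hydroxylase that sets collagen cross-links, rose from 609 and 697 CPM to 1641 and 1869 CPM in A549. In RKO it lay between 1.07 and 1.49 CPM, so that its RKO ratio rests on few reads. Its difference was -1.78 (SE 0.28, edgeR adjusted p = 0.00633).

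Further members called lower in RKO, named after their values were seen, were COL5A1 (-1.80), a fibrillar collagen chain, and FN1 (-1.21), fibronectin. COL13A1, a transmembrane collagen, rose in RKO from 1.18 and 0.883 CPM to 10.9 and 7.77 CPM and had a difference of 2.45 (edgeR adjusted p = 0.00819). COL7A1, the collagen of anchoring fibrils, differed by 1.87 (edgeR adjusted p = 0.00862) and rose in RKO from 3.96 and 5.62 CPM to 17.5 and 23.1 CPM, while A549 stood between 2495 and 3287 CPM in its 4 libraries. The hydroxylases P4HA1 and P4HA2, named for comparison, rose in both lines, by 2.74 and 1.88 in RKO and 2.08 and 1.46 in A549, and their differences were not called.

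**Figure D3:**
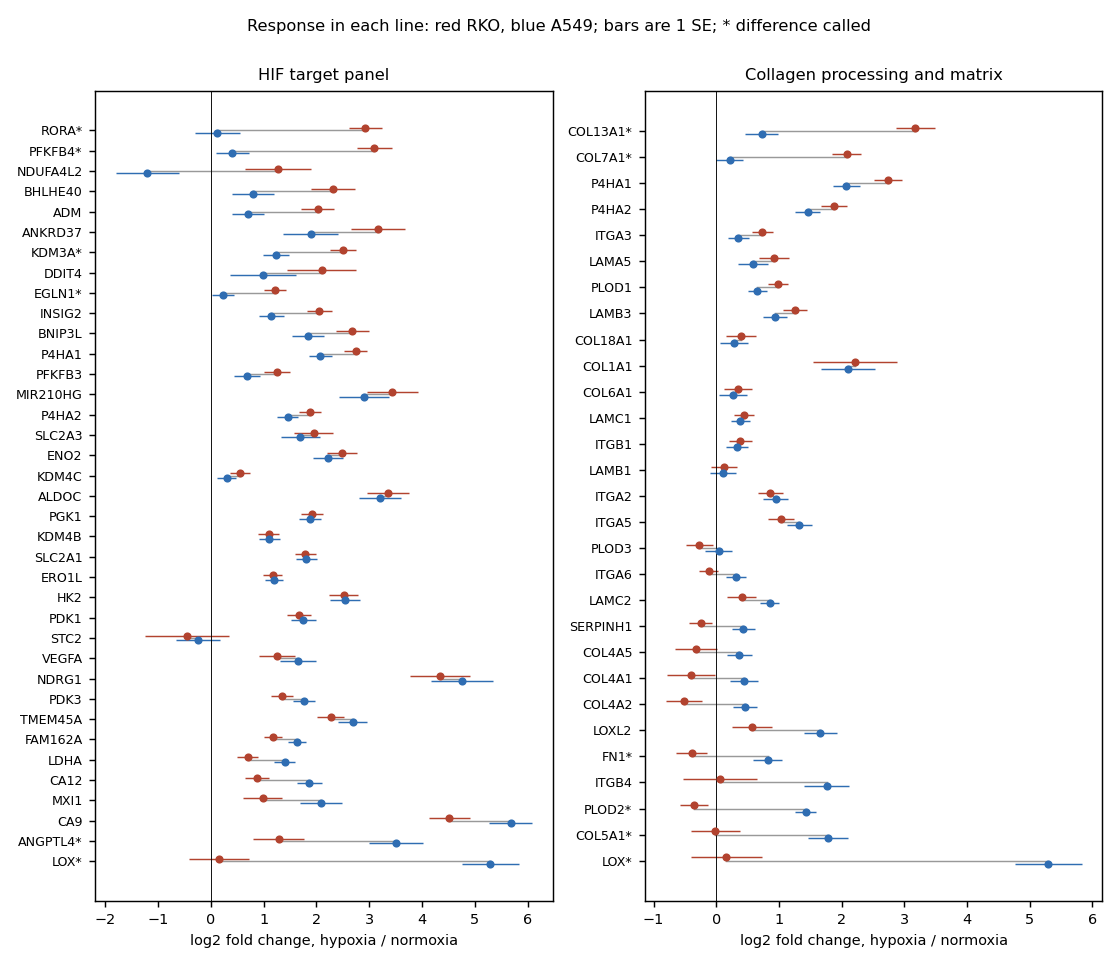
Log2 fold change in hypoxia over normoxia in RKO (red) and A549 (blue) of the HIF targets (left) and matrix genes (right) reported here, with bars of 1 SE. Genes are ordered by the difference, and an asterisk marks a called difference. In the middle of the HIF panel the points of both lines nearly coincide, as for SLC2A1 and PGK1, while LOX lies at the bottom of both panels.

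Genes of the p53 pathway responded in RKO and hardly in A549. Of 27 tested p53 targets 19 rose in RKO and none fell, whereas none rose and 1 fell in A549, with a median change of 0.86 in RKO and -0.09 in A549. The difference was positive for all 27 and called as higher in RKO for 14 (51.9%, against 6.34% of all genes) and lower for none, with a median of 0.96. The replicate block called 23 (85.2%, against 27.2% of all genes). When single libraries were left out, the median stayed between 0.70 and 1.04, while the count was 14 without A549 normoxia replicate 2 and 5 to 9 without any other library, the lowest being that without RKO normoxia replicate 2.

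TP53INP1, a p53-induced nuclear protein (chromosome 8, 95938200 to 95961615), was at 10.3 and 8.75 CPM in RKO normoxia and at 177 and 154 CPM in RKO hypoxia. In A549 it was at 21.9 and 12.2 CPM in normoxia and 26.1 and 28.9 CPM in hypoxia. The RKO conditions were far apart, and the A549 hypoxia libraries lay above their normoxia libraries without a call. The log2 change was 4.12 in RKO and 0.69 in A549, and the difference was 3.43 (SE 0.34, edgeR adjusted p = 0.000739).

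DDB2, a sensor of ultraviolet damage, rose in RKO from 27.1 and 32.4 CPM to 128 and 107 CPM. In A549 it stood at 125 and 82.8 CPM in normoxia and 124 and 139 CPM in hypoxia, where the conditions overlapped. Its difference was 1.64 (edgeR adjusted p = 0.0117). RRM2B, the p53-inducible subunit of ribonucleotide reductase, rose in RKO from 112 and 110 CPM to 250 and 216 CPM and stayed between 51.4 and 56.8 CPM in all A549 libraries, with a difference of 1.12 (edgeR adjusted p = 0.0152).

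GDF15, described above, is also on this list. Further called members, named after their values were seen, were SESN2 (2.14) and SESN1 (1.52), stress proteins that restrain mTORC1, GADD45A (1.94), an inhibitor of growth after DNA damage, POLH (1.603), a translesion polymerase, and FDXR (1.48), ferredoxin reductase. PPM1D (1.18) and MDM2 (1.18), both feedback inhibitors of p53, the death receptor TNFRSF10B (1.08), the death effector BBC3 (0.96) and the kinase PLK3 (0.83) were called as well. CDKN1A, the cell cycle inhibitor p21, rose in RKO from 149 and 126 CPM to 214 and 228 CPM and stood in A549 at 247 and 150 CPM in normoxia and 178 and 191 CPM in hypoxia. Its difference of 0.80 was not called (edgeR adjusted p = 0.144), and the block called it.

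The ATF4 pathway, which induces amino acid synthesis and transport, moved apart between the lines but not evenly between libraries. Of 31 tested genes 4 rose in RKO and none fell, 4 fell in A549 and none rose, and the median change was 0.09 in RKO and -0.86 in A549. The difference was positive for 30 of 31 and called as higher in RKO for 7 (22.6%, against 6.34% of all genes) and lower for none, with a median of 1.18. With the replicate block the share called was 51.6%, against 27.2% of all genes. ASNS, asparagine synthetase, shows the pattern. It stood at 164 and 66.3 CPM in RKO normoxia and 406 and 159 CPM in RKO hypoxia, and at 47.8 and 232 CPM in A549 normoxia and 33.7 and 37.1 CPM in A549 hypoxia. A549 normoxia replicate 2 was thus far above the other A549 libraries, and the RKO conditions overlapped.

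The difference of ASNS was 3.27 (SE 0.88, edgeR adjusted p = 0.0585). ATF3, a stress transcription factor, differed by 3.18 (edgeR adjusted p = 0.0627), PSAT1, of serine synthesis, by 2.07 (edgeR adjusted p = 0.0513) and AARS, alanyl-tRNA synthetase, by 1.77 (edgeR adjusted p = 0.0535). ATF4 itself differed by 0.40 and was not called. These calls rested on single libraries. Without A549 normoxia replicate 2 none of the 31 genes was called and the median was 0.30, and none was called without RKO normoxia replicate 2 or without RKO hypoxia replicate 1 (medians 0.78 and 0.82). The lost calls included those of ASNS, ATF3, PSAT1 and AARS. Without A549 hypoxia replicate 1 there were 2 calls, without A549 hypoxia replicate 2 there was 1, without A549 normoxia replicate 1 there were 20, and the replicate block gave 16.

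**Figure D4:**
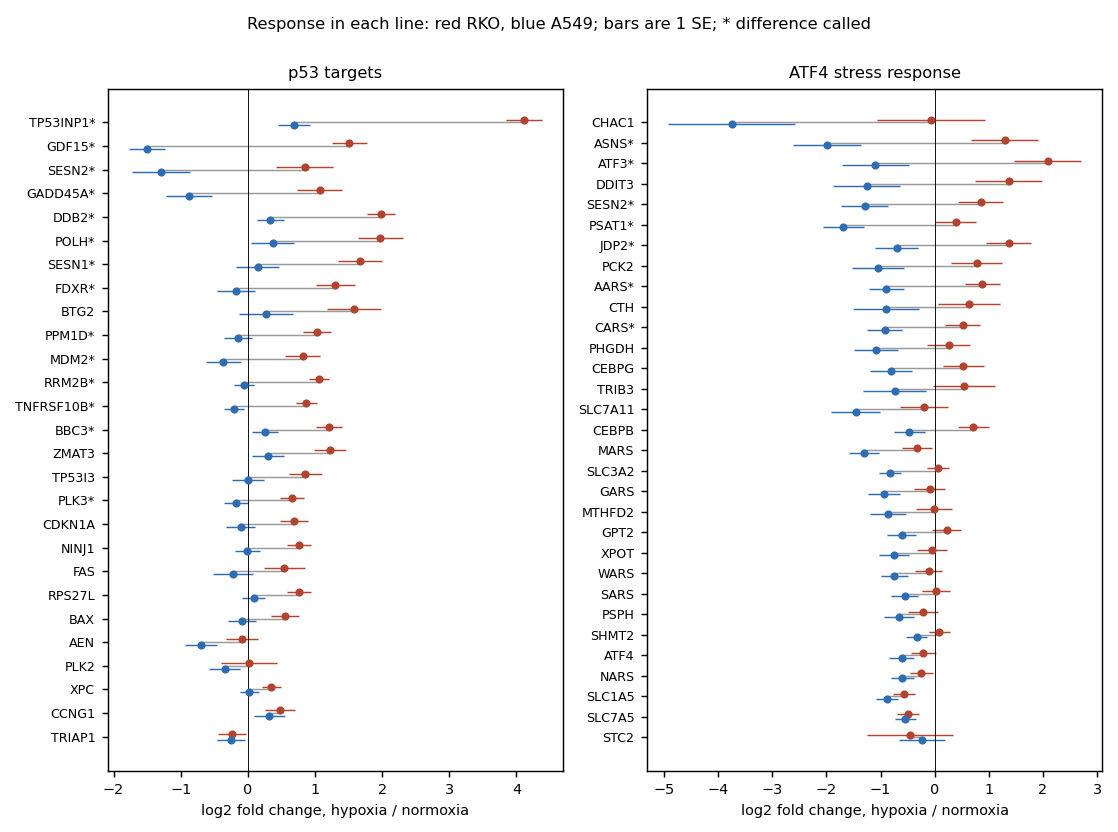
Log2 fold change in hypoxia over normoxia in RKO (red) and A549 (blue) of the tested p53 targets (left) and ATF4 pathway genes (right), with bars of 1 SE and an asterisk for a called difference. The RKO points of the p53 targets lie mostly right of zero with the A549 points near zero, while the A549 points of the ATF4 genes lie left of zero.

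Cholesterol synthesis was induced in RKO. Of 24 tested genes of the pathway 15 rose and 1 fell in RKO, and none was called in A549. The difference was called as higher in RKO for 7 (29.2%, against 6.34% of all genes) and lower for none, with a median of 0.60 that stayed between 0.50 and 0.69 when single libraries were left out. The replicate block gave 15 higher and 1 lower (66.7% called, against 27.2% of all genes). MSMO1, a sterol methyl oxidase, rose in RKO from 108 and 109 CPM to 324 and 286 CPM. It stood at 35.7 and 31.8 CPM in A549 normoxia and 40.9 and 37.9 CPM in A549 hypoxia, and that change was not called. Its difference was 1.26 (SE 0.22, edgeR adjusted p = 0.00971).

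HMGCS1, which makes the precursor of the pathway, rose in RKO from 128 and 136 CPM to 284 and 314 CPM, while in A549 it was at 104 and 73.9 CPM in normoxia and 87.7 and 66.5 CPM in hypoxia. The A549 conditions overlapped, and the difference was 1.39 (edgeR adjusted p = 0.0197). STARD4, a sterol carrier, and MVD, which forms the isoprene unit, differed by 1.27 and 1.18 (edgeR adjusted p = 0.0274 and 0.0336). The STARD4 call was lost without RKO normoxia replicate 1 or RKO hypoxia replicate 1 and the MVD call without RKO normoxia replicate 1 or A549 hypoxia replicate 1, with adjusted p up to 0.105 and 0.14. The number of called genes was 2 without RKO normoxia replicate 1, 3 without A549 hypoxia replicate 1, 4 without RKO normoxia replicate 2, either RKO hypoxia library or A549 hypoxia replicate 2, 5 without A549 normoxia replicate 1 and 7 without A549 normoxia replicate 2.

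Genes of ribosome biogenesis and associated with MYC fell in RKO. Of 49 tested 48 fell in RKO and 10 in A549, with medians of -1.30 and -0.60, and none rose. The difference was called as lower in RKO for 8 (16.3%, against 2.94% of all genes) and higher for none, with a median of -0.63. The replicate block called 31 lower (63.3%, against 27.2% of all genes called in either direction). UTP20, of the small-subunit processome, fell in RKO from 111 and 116 CPM to 19.7 and 29.99 CPM. In A549 it was at 114 and 100.4 CPM in normoxia and at 90.4 and 60.6 CPM in hypoxia, lower in both hypoxia libraries but not called. Its difference was -1.69 (SE 0.32, edgeR adjusted p = 0.0155).

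NPM1, nucleophosmin, fell in RKO from 2494 and 2043 CPM to 1212 and 980 CPM. In A549 it was at 1799 and 1568 CPM in normoxia and 1696 and 1621 CPM in hypoxia, with overlap. DDX10, a nucleolar helicase, and PES1, of 60S assembly, differed by -1.17 and -0.93, and NPM1 by -1.03. Leaving out single libraries ended the call of DDX10 in 2 fits, of NPM1 in 3 and of PES1 in 5, with adjusted p up to 0.164, 0.182 and 0.183, and RKO normoxia replicate 1 was among them for each. MYC itself fell in RKO from 533 and 460 CPM to 276 and 289 CPM, and its difference of -0.71 was not called. The number called lower was 28 without A549 hypoxia replicate 2 and 15 without A549 normoxia replicate 1. It was 9 without RKO hypoxia replicate 2, 3 without RKO normoxia replicate 2, A549 normoxia replicate 2 or A549 hypoxia replicate 1, 2 without RKO hypoxia replicate 1 and 1 without RKO normoxia replicate 1, and the median stayed between -0.86 and -0.41.

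The NRF2 pathway was mixed. Of 30 tested targets 7 fell and none rose in A549, 3 rose and 4 fell in RKO, and the difference was called higher in RKO for 4 (13.3%, against 6.34% of all genes) and lower for 1 (3.33%, near the 2.94%), with a median of 0.32 that was 0.14 without A549 hypoxia replicate 2. OSGIN1 and EPHX1 were described with the opposite genes. ABCC2, a drug efflux pump, fell in A549 from 989 and 856 CPM to 570 and 443 CPM and lay between 2.61 and 3.57 CPM in RKO. HMOX1, heme oxygenase, rose in RKO from 53.6 and 49.2 CPM to 132 and 222 CPM and changed by 0.70 in A549 without a call. Their differences were 1.02 and 1.09 (edgeR adjusted p = 0.0722 and 0.0736), and 6 of the 8 fits with a library left out lost each call, with adjusted p up to 0.242 and 0.219. ABCC2 kept its call without RKO hypoxia replicate 1 or A549 hypoxia replicate 1, and HMOX1 without RKO hypoxia replicate 1 or A549 hypoxia replicate 2. NQO1, a defining target, stood at 77.9 to 81.3 CPM in RKO and 1073 to 1317 CPM in A549, with a difference of 0.17 that was not called. The replicate block gave 14 higher and 4 lower (60% called, against 27.2% of all genes). The number higher was 2 without either RKO normoxia library, RKO hypoxia replicate 2 or either A549 normoxia library. Members of the AKR1C family are near-identical and their counts are uncertain.

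In the list of immediate-early and MAPK feedback genes FOSL2, a subunit of AP-1, stood out. It rose in RKO from 7.11 and 5.95 CPM to 47.9 and 30.5 CPM. In A549 it went from 253 and 282 CPM to 196 and 186 CPM, lower in both hypoxia libraries without a call. The difference was 3.07 (SE 0.30, edgeR adjusted p = 0.000612). TGFA, an EGF receptor ligand, differed by 1.598 (edgeR adjusted p = 0.00483), JUND, another AP-1 subunit, by 1.47 (edgeR adjusted p = 0.0196) and MYEOV by 1.15 (edgeR adjusted p = 0.0184). JUND rose in RKO from 21.4 and 18.8 CPM to 73.6 and 71.8 CPM. The list had 31 tested genes. A higher response in RKO was called for 5 (16.1%, against 6.34% of all genes) and a lower for 1 (3.23%, near the 2.94%). The replicate block gave 11 and 5 (51.6% called, against 27.2% of all genes). The member called lower without the block, named after its value was seen, was IER2 (-1.22). The list median was 0.32 and changed sign to -0.05 without A549 hypoxia replicate 1, and 11 were higher without A549 normoxia replicate 1.

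Smaller groups had few calls. Of 26 genes of TGF-beta signalling 3 were higher (11.5%, against 6.34% of all genes) and 1 lower in RKO (3.85%, near the 2.94%). With the replicate block 8 were higher and 2 lower (38.5% called, against 27.2% of all genes). The inhibitory SMADs SMAD7 and SMAD6 and the target ID2 rose in RKO with differences of 1.68, 1.48 and 1.43, from at most 1.18 CPM in RKO normoxia, and SMURF2, a ubiquitin ligase, differed by -0.89. SMAD6 passed the filter only through the RKO hypoxia libraries, where it was high, so the share called higher is a description. Of 27 interferon-stimulated and MHC class I genes 3 were higher (11.1%, against 6.34% of all genes) and none lower, among them IFI6 (1.65) and ISG20 (1.132). The replicate block gave 7 higher and none lower. That was 25.9% of the list, all on the higher side, against 27.2% of all genes called in either direction (1891 higher and 1430 lower). Of 19 epithelial and junction genes 2 were higher (10.5%, against 6.34% of all genes). CRB3 (1.89), among them, passed the filter only through the RKO hypoxia libraries, where it was high, so that share is a description. DSP (-0.83) and KRT18 (-0.77) were lower (10.5%, against 2.94%), and the block gave 2 and 3 (26.3% called, near the 27.2% of all genes). Each of these differences lost its call when at least 3 of the 8 libraries were left out in turn, with adjusted p up to 0.271.

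Glycolytic enzymes rose in both lines, 14 of 21 in RKO and 15 in A549, with medians of 0.85 and 0.86. PFKFB4 was called higher in RKO (4.76% of the list, near the 6.34% of all genes). PFKP (-0.80) and TPI1 (-0.79), a phosphofructokinase and triosephosphate isomerase, were lower (9.52%, against 2.94%). The replicate block called 1 higher and 7 lower (38.1%, against 27.2% of all genes). PFKP lost its call in 7 of the 8 fits with a library left out and TPI1 in 6, the exceptions being A549 hypoxia replicate 1 for PFKP and A549 normoxia replicate 1 and A549 hypoxia replicate 2 for TPI1. Oxidative phosphorylation had 1 call of 34, SDHD (-0.70), a subunit of succinate dehydrogenase, which kept its call only without A549 hypoxia replicate 2. The SDHD call was 2.94% of its list, the same as the 2.94% of all genes called lower. The replicate block called 1 of the oxidative phosphorylation genes higher and 5 lower (17.6%, against 27.2% of all genes). Among 17 circadian genes RORA was the single call (5.88%, near the 6.34% of all genes). The block gave 6 higher and 2 lower (47.1%, against 27.2% of all genes). The edgeR test without the block called none of 32 DNA replication genes, 30 mitosis genes and 22 genes of the unfolded protein response, with medians of -0.08, 0.01 and 0.03, whose signs changed with the setting. With the block 2 replication genes were higher and 6 lower, 5 mitosis genes higher and 4 lower, and 2 genes of the unfolded protein response higher and 3 lower. Those were 25%, 30% and 22.7% of the lists, near the 27.2% of all genes.

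Acute response genes of the study, defined in HCT116 colon carcinoma cells, had been chosen for a rise in another line. The 408 genes marked for HCT116 in a gene sheet of the study were used, fewer than the set its text describes, and 367 were tested. In RKO 236 rose and 4 fell, and in A549 110 rose and 1 fell. The difference was called as higher in RKO for 47 (12.8%, against 6.34% of all genes) and lower for 12 (3.27%, against 2.94%), with a median of 0.29. The replicate block gave 111 and 39 (40.9% called, against 27.2% of all genes). The median was 0.06 without A549 hypoxia replicate 1, where 19 were higher and 22 lower, and 0.44 without A549 hypoxia replicate 2, where 54 were higher and 9 lower. Counts without RKO normoxia replicate 1, RKO normoxia replicate 2, RKO hypoxia replicate 1 and A549 normoxia replicate 2 lay between 20 and 22 higher and 6 and 10 lower. With FOSL2, the members with the smallest p were KIAA1217, MEGF6, a protein with EGF repeats, and S100A10, the annexin A2 ligand, with differences of 1.96, 2.26 and 1.93. S100A10 rose from 4.28 and 4.06 CPM to 26.9 and 26.3 CPM in RKO, and from 380 and 286 CPM to 519 and 594 CPM in A549.

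**Figure D5:**
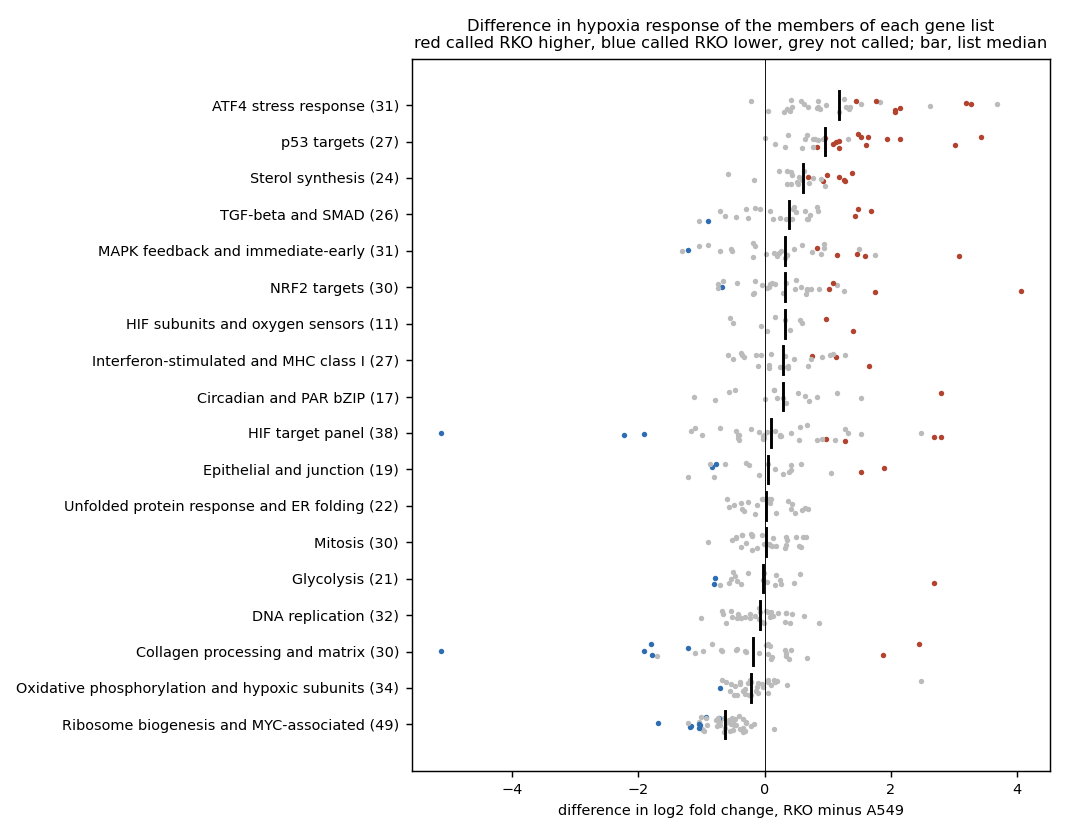
Difference in log2 fold change, RKO minus A549, of each tested member of the gene lists, with the number tested in parentheses. Red points are members called higher in RKO and blue points members called lower, and the black bar is the list median. The ATF4, p53 and sterol lists have the highest medians (1.18, 0.96 and 0.60) and the ribosome biogenesis list the lowest (-0.63).

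Among genes past the count minimums for naming, the differences at the top of the list were mostly in genes with little RNA in RKO normoxia. Of the 774 genes with a higher response in RKO, 114 did not exceed 0.5 CPM in both RKO normoxia libraries. The same held for 404 of the 12209 genes tested and for 2 of the 359 genes with a lower response. The 114 genes so passed the filter with the help of RKO hypoxia libraries, where they were high. MGAT5B, LINC01021, ANKRD1, GRIN2C and HKDC1 below, and SMAD6 and CRB3 above, were among these 114, and their rank is a description. MYO15B, an unconventional myosin gene, went from 0.512 and 0.53 CPM in RKO normoxia to 25.5 and 18.6 CPM in RKO hypoxia, and stood at 178 and 148 CPM in A549 normoxia and 186 and 194 CPM in A549 hypoxia. RKO hypoxia thus reached a level still below all A549 libraries. The difference was 5.18 (SE 0.31, edgeR adjusted p = 1.53e-05). MGAT5B, a glycosyltransferase, differed by 4.75, SYTL2, an effector of Rab27, by 4.63, and LINC01021, a long non-coding RNA induced by p53, by 4.64, each with less than 0.57 CPM in both RKO normoxia libraries.

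HKDC1, a hexokinase-like protein, differed by 3.61, ANKRD1, an ankyrin repeat protein of muscle that YAP activates, by 4.55, ULBP1, a ligand of the NKG2D receptor, by 4.02 and GRIN2C, an NMDA receptor subunit, by 3.81. In ANKRD1, ULBP1 and HKDC1 the A549 normoxia libraries were far apart (22.4 and 137, 2.18 and 17.8, and 142 and 309 CPM). The ANKRD1 call was lost without RKO normoxia replicate 1, and the ULBP1 and GRIN2C calls were lost in 5 fits each, with adjusted p up to 0.102, 0.176 and 0.245. For ULBP1 these left out RKO normoxia replicate 1 or 2, RKO hypoxia replicate 1, A549 normoxia replicate 2 (difference 1.75) or A549 hypoxia replicate 1, and for GRIN2C RKO normoxia replicate 1 or 2, RKO hypoxia replicate 2, A549 normoxia replicate 1 or A549 hypoxia replicate 2.

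Beside LOX, the genes with a stronger response in A549 included IGFBP3, which binds insulin-like growth factors and rose from 991 and 869 CPM to 3120 and 3665 CPM in A549 against 2.03 to 3.25 CPM in the RKO libraries. Its difference was -2.28 (SE 0.30, edgeR adjusted p = 0.00296). MT1X, a metallothionein, rose in both lines, from 78.0 and 66.1 CPM to 192 and 166 CPM in RKO and from 7.10 and 10.4 CPM to 65.1 and 190 CPM in A549, with a difference of -2.55. Metallothioneins are close copies, so its count is uncertain, as is that of the histone gene HIST1H4H (-3.74). PPFIA4, a liprin of synapses, differed by -3.86, HOXD9, a homeobox factor, by -3.15, SOX8, of the SOX family, by -2.42 and P2RY2, a receptor for extracellular nucleotides, by -2.30. SOX8 was also called in opposite directions, and fell in RKO from 22.9 and 24.5 CPM to 13.4 and 11.6 CPM. In A549 normoxia SOX8 had 25 and 20 reads and HOXD9 26 and 41, so their A549 ratios rest on few reads. PPFIA4 had 11 and 30 reads in RKO normoxia and 26 and 16 in RKO hypoxia. HIST1H4H had 59 and 30 reads in RKO normoxia and 46 and 21 in RKO hypoxia. The RKO ratios of PPFIA4 and HIST1H4H thus rest on few reads too. The PPFIA4 call was lost without RKO normoxia replicate 2 (edgeR adjusted p = 0.157) and that of HIST1H4H without RKO normoxia replicate 1 (edgeR adjusted p = 0.101).

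Where one line had no reads to speak of, no difference could be read. In all, 608 genes passed 0.5 CPM in at least 2 RKO libraries but not in A549, and 2042 did so in A549 but not in RKO. A gene could pass through its hypoxia libraries alone, as PRSS8 and SEMA5B did, so the number that rose is not read as a result. In RKO PRSS8, a membrane-anchored serine protease, rose from 0.166 and 0.13 CPM to 8.54 and 4.26 CPM, a log2 change of 5.41 (SE 0.52, edgeR adjusted p = 8.22e-05). POU5F1B, a retrogene of the POU family whose reads may be shared with its parent gene, rose by 3.52, SNCAIP, the synphilin gene, by 3.44, LOC115110, a non-coding RNA, by 2.86, and FER1L5, a ferlin, by 2.53.

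In A549 the HIF oxygen sensor EGLN3 rose from 26.8 and 12.7 CPM to 152 and 278 CPM, a log2 change of 3.44 (SE 0.34, edgeR adjusted p = 0.000401), while RKO had 4 to 6 reads of it in each library. BNIP3, a HIF target of mitophagy added after its values were seen, rose in A549 from 70.6 and 55.8 CPM to 227 and 216 CPM, against 11 to 31 reads in the RKO libraries. SEMA5B, a semaphorin, rose by 5.43, GAL3ST1, which makes sulfatide, by 2.65 and B4GALNT2, a glycosyltransferase, by 2.72, while CPLX2, complexin, fell by 3.31 on the log2 scale from 23.9 and 23.1 CPM to 3.27 and 1.45 CPM. SEMA5B and B4GALNT2 had 0 reads in all 4 RKO libraries, which allows up to 3 counts in each by counting error alone.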

How the data were processed

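Strand-specific poly(A)+ RNA-seq libraries were sequenced from RKO and A549 cells in normoxia or hypoxia, 2 replicates per group. Per the labels and the study's methods, the authors trimmed reads, aligned them to GRCh37/hg19 with TopHat2 2.0.13 and Bowtie2 2.2.3.0, and made the deposited counts per gene with HTSeq 0.6.1. The deposited RPKM values, which the authors made from the same alignments by scaling to gene length and counted reads, served only as an alternative unit. SAMtools 1.3.1, Picard 1.129 and FastQC 0.11.5 are also named in the submitters' processing notes.

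Counts of 12209 of 25369 genes, those over 0.5 CPM in at least 2 RKO and 2 A549 libraries, were fitted with edgeR 4.0.16 in R 4.3.3 (TMM scaling, 4 group means, quasi-likelihood test, two-sided). The contrast was the log2 change in RKO minus that in A549, called at a Benjamini-Hochberg adjusted p under 0.1. Changes within a line were called at that p and a fold over 1.5, and the standard error is the log2 value divided by the square root of F. Printed CPM values use the TMM-scaled library sizes, except the marker sums and the filter, which use the totals. The median standard error of the difference was 0.285. The fit was also run on simulated counts drawn independently for each library. Those counts lacked the correlation between libraries of the same replicate number, so that run does not test the spread in these data. H460 libraries were fitted on their own. Genes detected in one line alone were read within that line.

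Named genes were called genes with a mean of at least 10 counts in each group and 100 over the 8 libraries whose ratios did not overlap between the lines, 10 per direction by size of the difference. To these were added up to 8 opposite-called genes per direction with those minimums and up to 4 called members per list, both by p, a fixed set of HIF genes, and up to 5 genes per line detected there alone. The rule, the members and the 22 lists were chosen with earlier results of these data known. The study describes its RNA-seq replicates as biological duplicates, and p-values measure the spread between these samples. Deviations from the group means of libraries with the same replicate number correlated between normoxia and hypoxia (r = 0.35 in RKO and 0.331 in A549, 2 mirrored pairs each), so counts from the fit with the replicate number as a block are given beside the lists. The labels do not say whether libraries of the same replicate number shared a culture or a day, so that pairing is an assumption. Alternatives used other scalings, filters, thresholds and samples, limma 3.58.1 and DESeq2 1.42.0. Intervals are at the 95% level. The values of some list members are not reported here.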

Additional observations from a re-analysis of the deposited data

Results flagged for a closer look

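Results stand here because the test of the difference between the lines itself, the interaction in edgeR, passed an adjusted p of 0.1. It did so for 774 genes with a higher and 359 with a lower response in RKO. Of the genes named by the rule 79 passed, and the differences reported here in log2 change, RKO minus A549, follow by size.

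Among those with a higher response in RKO, the largest were MYO15B (5.18), MGAT5B (4.75), LINC01021 (4.64), SYTL2 (4.63), ANKRD1 (4.55), OSGIN1 (4.07), ULBP1 (4.02), SH2D5 (3.88), GRIN2C (3.81), HKDC1 (3.61), TBC1D30 (3.45), TP53INP1 (3.43), ASNS (3.27), ATF3 (3.18), FOSL2 (3.07) and GDF15 (3.02). Next came RORA (2.80), PFKFB4 (2.68), NR4A1 (2.58), COL13A1 (2.45), MEGF6 (2.26), PSAT1 (2.07), SGK223 (2.01), KIAA1217 (1.96) and S100A10 (1.93). Smaller differences were those of RELL2 (1.89), CRB3 (1.89), COL7A1 (1.87), AARS (1.77), EPHX1 (1.74), SMAD7 (1.68), IFI6 (1.65), DDB2 (1.64), TGFA (1.598), SMAD6 (1.48), JUND (1.47), ID2 (1.43), EPAS1 (1.41), HMGCS1 (1.39), KDM3A (1.27), STARD4 (1.27), MSMO1 (1.26), MVD (1.18), MYEOV (1.15), ISG20 (1.132), RRM2B (1.12), HMOX1 (1.09), ABCC2 (1.02) and EGLN1 (0.98).

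On the side of a lower response in RKO stood LOX (-5.13), PPFIA4 (-3.86), HIST1H4H (-3.74), HOXD9 (-3.15), MT1X (-2.55), SOX8 (-2.42), FAM13A (-2.38), P2RY2 (-2.30), IGFBP3 (-2.28), ANGPTL4 (-2.22), LPCAT1 (-2.20), PRKAR1B (-2.16), LXN (-2.06) and ARRB1 (-2.05). Closer to zero were PLOD2 (-1.78), UTP20 (-1.69), IL32 (-1.66), SCARB1 (-1.61), MRPS6 (-1.596), DDX10 (-1.17), NPM1 (-1.03), PES1 (-0.93), SMURF2 (-0.89), DSP (-0.83), PFKP (-0.80), TPI1 (-0.79), KRT18 (-0.77) and SDHD (-0.70).

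When each library was left out in turn, 45 of the 79 kept the call in all 8 fits and 34 lost it in at least 1. The counts of MT1X and HIST1H4H are uncertain because each has close copies in the genome. MGAT5B, LINC01021, ANKRD1, GRIN2C, HKDC1, SMAD6 and CRB3 passed the filter with the help of RKO hypoxia libraries, where they were high. Their place in this ranking is a description. No explanation of these differences was tested.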

How the results depend on the processing

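Of the main counts (774 higher in RKO, 359 lower, 26 opposite), RLE scaling, voom with quality weights, the filters at 0.5 CPM in any 2 libraries and at 10 counts in every library, and a minimum of 1.5-fold moved none by over 1.5 times. Scaling by library size gave 192 lower, DESeq2 687 lower and 44 opposite, and limma 179 lower at log2(RPKM + 0.1) and 189 lower with 13 opposite at log2(RPKM + 1). These RPKM fits put 84.6% and 83.4% of calls on the higher side. No filter gave 1227, 542 and 73, the joint fit of 12 libraries 1484, 977 and 53, the replicate block 1891, 1430 and 65, an adjusted p under 0.05 411, 123 and 11, and a minimum of 2-fold 164 lower. Leaving out each library in turn, the counts ranged from 250 to 897, from 53 to 585 and from 2 to 45. The lone replicate was then assumed to vary like the other groups. Of the 1133 calls 97.8% were also made with RLE scaling, 98.6% with DESeq2, 85.3% with library size and 26.2% without RKO normoxia replicate 1. Over 89 named genes and 19 settings, 1455 of 1688 values kept direction and call, 191 lost the call, 22 gained it and 20 changed direction, all of the uncalled differences of SLC2A1, PDK1, NDRG1 and VEGFA. SLC2A1 was 0.12 with library size, 0.0035 with voom, 0.14 and 0.13 in the RPKM fits and 0.0057 with the block. PDK1 was 0.0487 with library size and 0.12 and 0.38 in the RPKM fits, and NDRG1 was 0.0098 with voom, 0.15 and 0.15 in the RPKM fits and 0.0016 with the block. Leaving out each library in turn, SLC2A1 ranged from -0.35 to 0.21, PDK1 from -0.37 to 0.25, NDRG1 from -1.07 to 0.81 and VEGFA from -0.96 to 0.25. The cause of these shifts was not tested. With 2 replicates per group a median standard error of 0.285 limits what could be called, and an uncalled difference does not show that the lines respond alike.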
